A study of Mus musculus with 5 samples.

Results

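The 10 genes described here encode transcription factors of the posterior primitive streak and of newly formed mesoderm: T, Cdx1, Cdx2, Cdx4, Evx1, Mesp1, Mixl1, Eomes, Tbx6 and Msgn1. They were chosen by symbol, and all 10 were found among the 23951 genes of the deposited table. RNA had been sequenced in 5 libraries of mouse pluripotent cells, each the only library of its group, and the series concerns signalling by bone morphogenetic proteins (BMPs) in naive and primed cells. Of these, 3 came from epiblast stem cells derived from embryonic stem cells (EpiSCs, primed cells, kept in N2B27 medium with FGF2 at 12 ng/ml and Activin A at 20 ng/ml on serum-coated plates): 1 untreated, 1 exposed to BMP-4 for 1.5 h and 1 exposed for 24 h, the dose being 10 ng/ml. The other 2 came from embryonic stem cells (ESCs, naive cells) of the E14 line, kept either in a basal medium supplemented by leukaemia inhibitory factor (LIF) and 10 ng/ml BMP-4, or on gelatin in medium with 1000 U/ml LIF and 15% fetal bovine serum. The labels give E14 ESCs as the source of every library and name no genetic change in any group.

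In the gastrulating embryo the primitive streak forms at the posterior side of the epiblast under BMP, Wnt and Nodal signals. Its posterior part gives extraembryonic and lateral mesoderm, and its anterior part gives endoderm, prechordal tissue and notochord. T-box, Mix-type, caudal-type and basic helix-loop-helix factors mark successive steps of this path, and EpiSCs kept in FGF2 and Activin A resemble the epiblast just before or at streak formation.

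Levels are FPKM (fragments scaled to transcript length and to library size), with the deposited lower and upper confidence bound in parentheses. Differences are in log2(FPKM + 1), a scale that understates the change of low genes, and a gene is called higher or lower at 2-fold or more on it. No group had a replicate, so no test was possible and no p-value is given. The naive marker Zfp42 stood at 0.391 to 0.686 FPKM in the EpiSC libraries, against 1227 and 1336 FPKM in the ESC libraries, and the primed marker Fgf5 at 60.2 to 133 FPKM, against 0.236 and 0.0495 FPKM. Fibroblast markers summed to at most 5.89 FPKM in any library over 6 genes, most of it Thy1. The BMP response genes Id1, Id2 and Id3 summed to 400 FPKM after 1.5 h and 467 FPKM after 24 h, against 59.5 FPKM in untreated EpiSCs. Estimated depth was 9.74 M, 10.9 M and 13.2 M reads in untreated, 1.5 h and 24 h EpiSCs, and 8.85 M and 8.43 M reads in ESCs with BMP-4 and with serum.

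For 9 of the 10 genes the FPKM values in the 5 libraries were whole multiples of a single step per gene, with the largest departure from a whole number being 0.000774, once the depth of each library was taken into account. The step was matched to the annotated transcript length, which gives the number of reads behind each value. Reads are not scaled for depth, which was greatest in the 24 h library, so their ratios between libraries differ from those of FPKM. A value listed at 0 is printed as 0 reads, which the step cannot check. For Mesp1, Cdx4 and Msgn1 a smaller step also gave whole numbers near that length, and the larger step, hence the smaller read number, is printed. For Eomes no step was sought, because even its lowest value, in ESCs with serum, stood for about 20.4 reads by transcript length. The labels describe no molecular identifiers, so intervals on them are exact Poisson limits at 95% for counting error only.

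T, Brachyury, the T-box factor of the streak and nascent mesoderm (chromosome 17, 8627288 to 8635361, in mm9 as all positions of genes here), had a level of 11.9 FPKM (2.78 to 20.9) in untreated EpiSCs, 10.6 (2.14 to 19.1) after 1.5 h and 89.2 (44.4 to 134) after 24 h. It was listed at 0 in ESCs with BMP-4 and stood at 0.0591 (0 to 0.214) in ESCs with serum. The 24 h library was the highest, and its interval lay apart from those of all other libraries. The intervals of untreated and 1.5 h EpiSCs lay apart from both ESC intervals. The value in ESCs with serum rested on 1 read. In reads, T had 2373 (2278 to 2470) after 24 h, against 232 (203 to 264) in untreated EpiSCs.

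Eomes, a T-box factor of the early streak that also acts in trophoblast (chromosome 9, 118387307 to 118395250), stood at 23.9 FPKM (10.2 to 37.6) in untreated EpiSCs, 19.7 (8.04 to 31.3) after 1.5 h and 28.7 (12.7 to 44.7) after 24 h. In ESCs it stood at 1.06 (0 to 2.34) with BMP-4 and 0.681 (0 to 1.62) with serum. The 3 EpiSC intervals overlapped one another and none overlapped an ESC interval.

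Mixl1, a paired-type homeodomain factor of the streak (chromosome 1, 182623179 to 182627165), stood at 2.8 FPKM (0 to 5.92) in untreated EpiSCs, 1.62 (0 to 3.88) after 1.5 h and 3.52 (0 to 7.08) after 24 h, from 62, 40 and 106 reads. It stood at 0.0497 (0 to 0.187) and 0.209 (0 to 0.645) FPKM in ESCs with BMP-4 and with serum, from 1 and 4 reads. All deposited intervals of Mixl1 reached 0 and so overlapped. In reads, not scaled for depth, the Poisson limits were 47.5 to 79.5, 28.6 to 54.5 and 86.8 to 128 in the EpiSC libraries. Those in ESCs ended at 5.57 with BMP-4 and 10.2 with serum.

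Cdx2, a caudal-type homeodomain factor of the posterior body and of trophectoderm (chromosome 5, 148112476 to 148118825), stood at 1.55 FPKM (0 to 3.67) in untreated EpiSCs, 1.48 (0 to 3.47) after 1.5 h and 13.7 (3.62 to 23.7) after 24 h. It stood at 0.16 (0 to 0.502) and 0.056 (0 to 0.203) in ESCs with BMP-4 and with serum. The 24 h interval began just below the upper bound of the untreated library and lay apart from the other 3. Behind these values were 383 reads (346 to 423) after 24 h, against 32 (21.9 to 45.2) in untreated EpiSCs.

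Mesp1, a basic helix-loop-helix factor of the earliest cardiac and head mesoderm (chromosome 7, 86937127 to 86938476), is listed at 0 for untreated EpiSCs. Its level was 0.291 FPKM (0 to 0.925) after 1.5 h of BMP-4 and 7.32 (0 to 15.6) after 24 h. It stood at 0.595 (0 to 1.88) in ESCs with BMP-4 and 0.125 (0 to 0.452) in ESCs with serum. The 24 h library was the high one, with 92 reads (74.2 to 113), and each of the others held 0 to 5 reads. These numbers use the larger step, and the smaller step would give more reads.

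Evx1, an even-skipped homeodomain factor of the posterior streak (chromosome 6, 52258383 to 52268372), stood at 0.246 FPKM (0 to 0.817) in untreated EpiSCs, 0.945 (0 to 2.79) after 1.5 h and 6.01 (0.0304 to 12) after 24 h. It stood at 0.116 (0 to 0.362) and 0.244 (0 to 0.641) in ESCs with BMP-4 and with serum. The EpiSC values rested on 7 (2.81 to 14.4), 30 (20.2 to 42.8) and 232 (203 to 264) reads, and the Poisson limits of these 3 did not overlap although the deposited intervals did. The row 5730457N03Rik, the opposite-strand RNA Evx1os in RefSeq, is listed with the same start and end. The span printed for Evx1 may therefore be that of a locus shared by both genes. The Evx1os row stood at 0.416, 0.962 and 6.15 FPKM in untreated, 1.5 h and 24 h EpiSCs. Evx1os stood at 0.0382 FPKM in ESCs with BMP-4 and was listed at 0 with serum, where Evx1 had 6 reads, so the rows are not copies of each other. The libraries were directional, but the sources used here do not say whether counting used strand, so reads of Evx1 and Evx1os cannot be told apart with certainty.

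The remaining 4 genes stayed below 1 FPKM in every EpiSC library. Cdx1, the caudal-type gene of the early posterior epiblast, is listed at 0 for untreated EpiSCs. Its level was 0.0545 FPKM (0 to 0.221) after 1.5 h of BMP-4 and 0.493 (0 to 1.52) after 24 h. Its highest value was in ESCs with serum, at 2.04 FPKM (0 to 4.87), while ESCs with BMP-4 had 0.402 (0 to 1.24). Cdx1 had 0, 1 and 11 reads in the EpiSC libraries, and 6 and 29 reads in ESCs with BMP-4 and with serum. Its highest library differed from that of Cdx2, which had 1 read in ESCs with serum and 3 in ESCs with BMP-4. Among the EpiSC libraries both genes stood highest after 24 h.

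Cdx4, the third caudal-type gene, had at most 4 reads in any library, in ESCs with BMP-4, at 0.298 FPKM (0 to 0.926), and was listed at 0 after 24 h of BMP-4 and in untreated EpiSCs. Tbx6, the T-box factor of paraxial mesoderm, had 4 reads after 24 h, at 0.183 FPKM (0 to 0.577), against 1 read in untreated EpiSCs, and 3 and 1 reads in ESCs with BMP-4 and with serum. Msgn1, a basic helix-loop-helix factor of presomitic mesoderm, had 2 reads after 24 h, at 0.386 FPKM (0 to 1.33), and 1 read in ESCs with BMP-4, and was listed at 0 in the other 3 libraries. At this depth no difference between libraries was detectable for Cdx4, Tbx6 or Msgn1. An exact 0 in this table can be a failed estimate, since the widely expressed gene Hmgcs1 is listed at 0 in every library, so no ratio is given against a 0, and a log2 difference against a 0 depends on the added 1 FPKM.

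**Figure D1:**
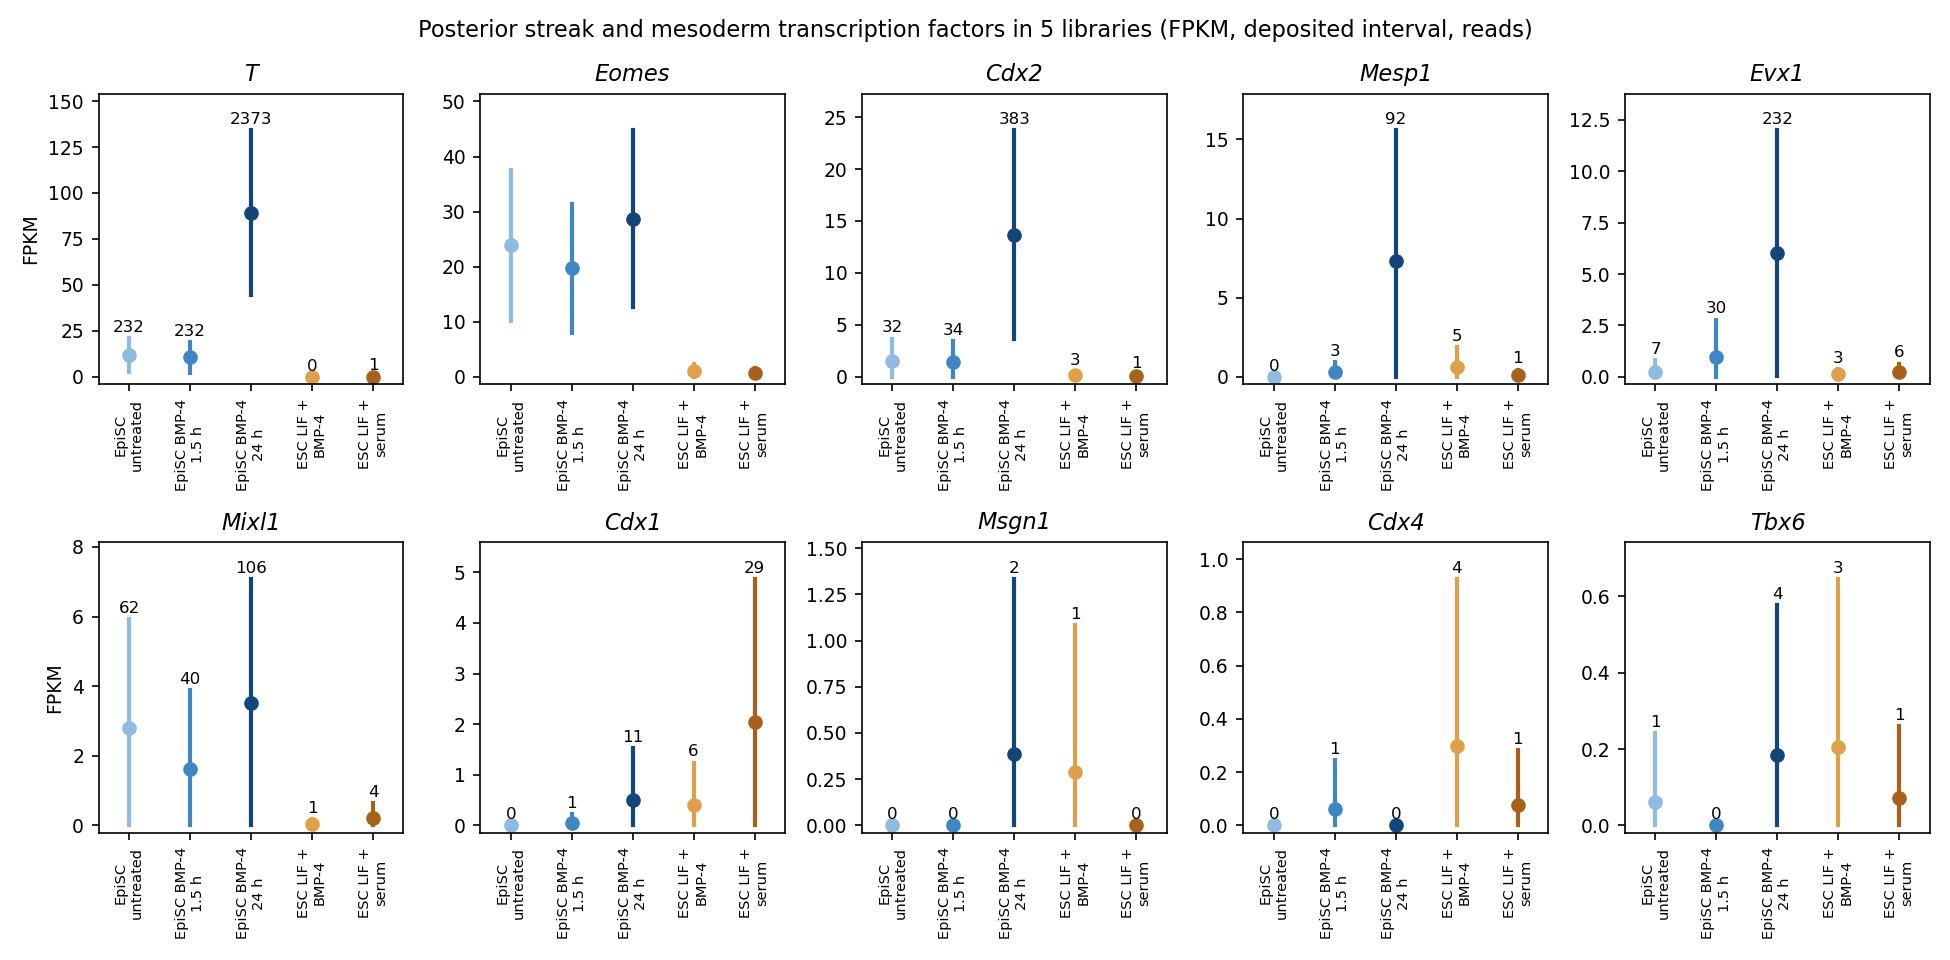
FPKM (linear y axis, its own range in each panel) of the 10 genes in the 5 libraries; points are the deposited values, bars the deposited confidence bounds, and numbers above the bars the reads behind each value where whole reads could be derived. T, Cdx2, Mesp1 and Evx1 are highest in EpiSCs after 24 h of BMP-4 (89.2, 13.7, 7.32 and 6.01 FPKM), Eomes is within 2-fold over the EpiSC libraries, and Cdx1 is highest in ESCs with serum (2.04 FPKM).

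The promoter windows of T, Mesp1, Evx1 and Cdx2, the 4 genes called higher after 24 h than in untreated EpiSCs, are printed to show what their start regions hold. That of Msgn1 is set beside them as a gene with TCF/LEF matches and at most 2 reads in a library. The RefSeq table (GRCm38.p6) holds windows of 250 bases before to 50 bases after the start for 8 of the 10 genes, Cdx1 and Mixl1 being the others. Capitals mark exact matches to a searched motif on either strand, those on the opposite strand showing as the reverse complement. The windows run 5′ to 3′ on the strand of the gene and lie at chr17:8434173-8434472 (T, plus strand), chr7:79793541-79793840 (Mesp1, minus), chr6:52313248-52313547 (Evx1, plus), chr5:147307200-147307499 (Cdx2, minus) and chr12:11208899-11209198 (Msgn1, minus).

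T: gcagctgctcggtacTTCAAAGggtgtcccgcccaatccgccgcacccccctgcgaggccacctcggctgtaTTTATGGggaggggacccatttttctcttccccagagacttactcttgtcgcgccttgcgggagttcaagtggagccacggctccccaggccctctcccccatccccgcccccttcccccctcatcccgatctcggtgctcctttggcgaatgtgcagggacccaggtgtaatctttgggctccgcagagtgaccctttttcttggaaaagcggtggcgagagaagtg

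Mesp1: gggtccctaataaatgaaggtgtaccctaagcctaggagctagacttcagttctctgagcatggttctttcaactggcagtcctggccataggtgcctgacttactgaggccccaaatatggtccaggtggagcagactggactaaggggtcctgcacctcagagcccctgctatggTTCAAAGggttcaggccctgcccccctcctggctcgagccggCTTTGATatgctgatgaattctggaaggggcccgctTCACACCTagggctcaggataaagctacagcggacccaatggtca

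Evx1: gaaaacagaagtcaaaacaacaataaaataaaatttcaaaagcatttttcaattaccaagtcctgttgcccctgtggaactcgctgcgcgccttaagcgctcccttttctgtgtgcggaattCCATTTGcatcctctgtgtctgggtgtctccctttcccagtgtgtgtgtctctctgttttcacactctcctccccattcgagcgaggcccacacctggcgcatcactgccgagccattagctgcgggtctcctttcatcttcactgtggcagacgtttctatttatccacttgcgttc

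Cdx2: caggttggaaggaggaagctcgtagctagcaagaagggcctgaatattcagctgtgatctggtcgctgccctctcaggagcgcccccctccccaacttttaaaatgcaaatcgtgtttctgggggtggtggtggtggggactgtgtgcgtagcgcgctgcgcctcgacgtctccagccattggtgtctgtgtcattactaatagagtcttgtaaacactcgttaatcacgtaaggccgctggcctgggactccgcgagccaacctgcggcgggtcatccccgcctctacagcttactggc

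Msgn1: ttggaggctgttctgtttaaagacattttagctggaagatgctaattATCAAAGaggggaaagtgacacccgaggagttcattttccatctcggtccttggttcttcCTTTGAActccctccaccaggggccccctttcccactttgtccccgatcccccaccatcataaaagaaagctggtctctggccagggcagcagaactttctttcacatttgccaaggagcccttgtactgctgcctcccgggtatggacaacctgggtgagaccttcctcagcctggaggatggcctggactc

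The motifs searched were CTTTGAA and CTTTGAT (TCF/LEF factors of Wnt signalling), AGGTGTGA (T-box), TTTATGG (Cdx), GGCGCC (GC-rich site of Smad1 and Smad5), GTCTAGAC (Smad palindrome) and CAAATGG (an E-box bound by Mesp factors), together with the palindromic paired homeodomain dimer motif, all on both strands. A TCF/LEF match was present in 3 of the 8 windows, those of T, Mesp1 and Msgn1, against 8.65% of 32851 promoter windows. Mesp1 held 2 of them, from -73 to -67 and from -31 to -25, and also the T-box match, from 6 to 13, a motif found in 1.28% of all windows. T held its TCF/LEF match from -235 to -229 and a Cdx match from -178 to -172, a motif in 2.75% of windows. Evx1 held the E-box match (3.47% of windows) and Eomes the paired homeodomain match (0.487%). Neither Smad motif matched in any of the 8 windows, and 11.9% and 0.213% of all windows held the GC-rich site and the palindrome. The Cdx2, Tbx6 and Cdx4 windows held no match. No match in these 8 windows overlapped another. The GENCODE starts of Cdx2, Mesp1 and Msgn1 lie 5′ of the RefSeq starts, at -21, -198 and -24. A GENCODE transcript of Eomes starts 3′ of its RefSeq start, at 24, so the windows of these genes depend on the annotation. The TCF/LEF and T-box matches of Mesp1 all lie 3′ of its GENCODE start. A match says that these letters are present and nothing of binding.

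**Figure D2:**
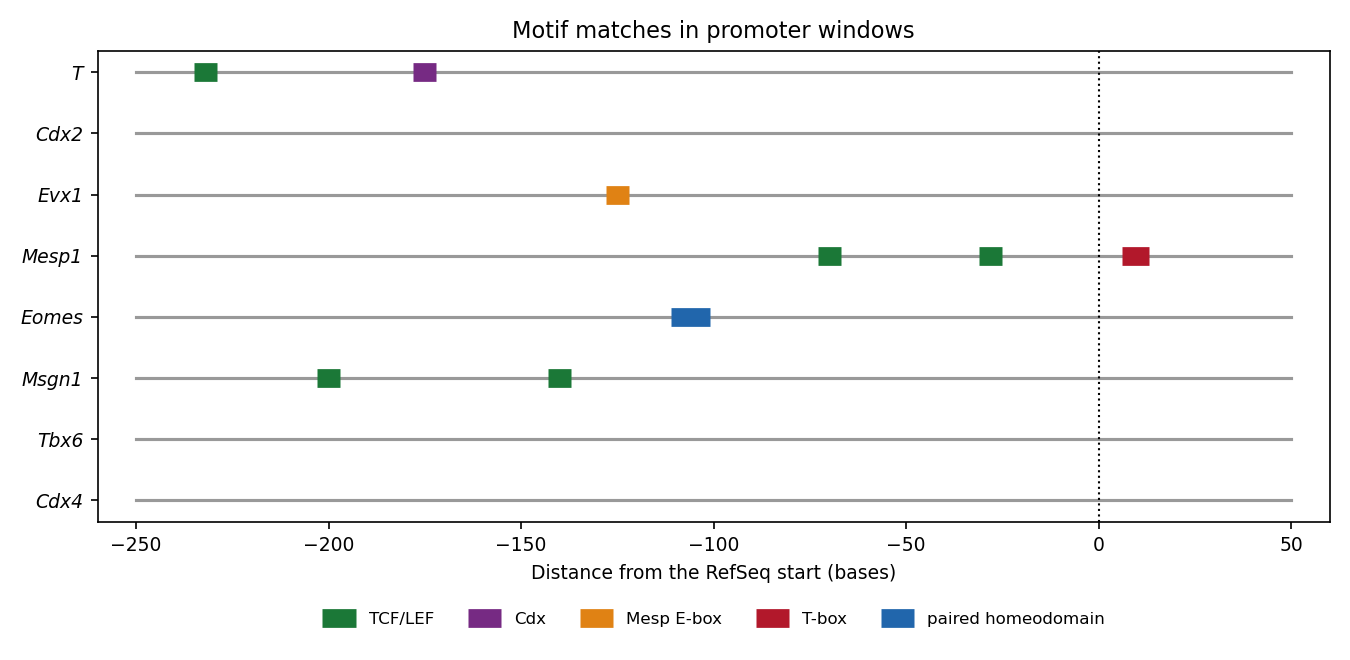
Positions of motif matches (coloured blocks) in the 8 promoter windows, as distance in bases from the RefSeq start (dotted line; negative is 5′). TCF/LEF matches lie in the windows of T, Mesp1 and Msgn1, and those of Cdx2, Tbx6 and Cdx4 hold none of the searched motifs.

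After 24 h of BMP-4, 4 of the 10 genes were higher than in untreated EpiSCs: T, Cdx2, Evx1 and Mesp1. Over the genes compared, 0.654% were higher and 0.527% lower. A mean of 1 FPKM or more across the 5 libraries was required of all genes; 6 of the 10 had it, and Cdx2, Evx1 and Mesp1 reached it through the 24 h value itself, so the count adds nothing to the values. The log2 differences were 2.81 for T, 2.52 for Cdx2, 2.49 for Evx1 and 3.06 for Mesp1. That of Mesp1 is against a value listed at 0. The deposited intervals were apart for T and overlapped for the other 3. Of all genes compared, 0.0545% were higher and 0.0273% lower with intervals apart. Eomes and Mixl1, which act in the early and also the anterior streak, had differences of 0.25 each, within 2-fold. Cdx1 differed by 0.58, Msgn1 by 0.47 and Tbx6 by 0.16, all from 11 or fewer reads.

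Summed over the 10 genes, the level was 149.5 FPKM after 24 h, against 40.4 FPKM in untreated EpiSCs. T made up 59.7% of the sum after 24 h, against 29.3% in untreated EpiSCs, and Eomes 19.2%, against 59.1%. The ratio of T to Eomes was 3.11 after 24 h, against 0.496 in untreated EpiSCs. The 24 h library was also the deepest of the 5, which FPKM scales for. In a bulk library more cells with a transcript and more transcript per cell cannot be told apart.

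**Figure D3:**
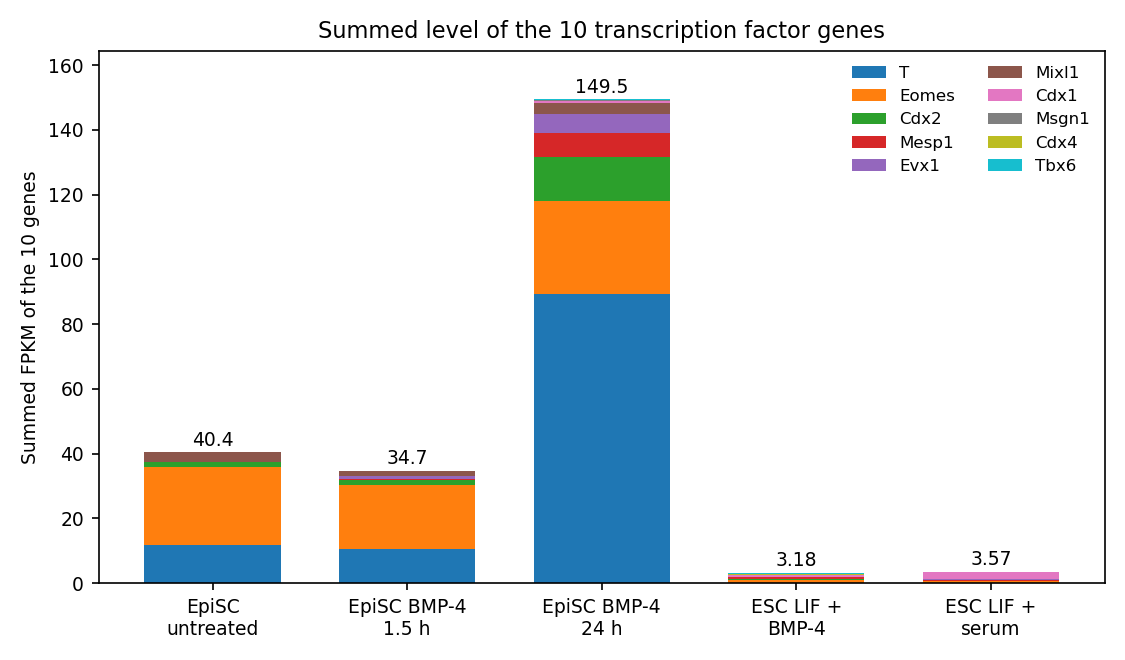
Summed FPKM of the 10 genes in each library (bars start at 0, coloured by gene, total above each bar). The sum is 149.5 FPKM after 24 h of BMP-4, where T is the largest part, 40.4 and 34.7 FPKM in untreated and 1.5 h EpiSCs, where Eomes is, and 3.18 and 3.57 FPKM in ESCs.

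After 1.5 h of BMP-4, 0 of the 10 genes were higher or lower than in untreated EpiSCs, against 0.236% of genes higher and 0.182% lower. T had 232 reads in both libraries, at a log2 difference of -0.15, and Cdx2 had 34 reads, against 32, at -0.04. Evx1 had the largest positive difference among the 10, 0.64, from 30 reads, against 7. Mesp1 differed by 0.37 from 3 reads. Mixl1 differed by -0.54 and Eomes by -0.27. Intervals overlapped for all 10, beside 0.0273% of genes higher and 0% lower with intervals apart. Evx1 was called higher at a limit of 1.5-fold, and Evx1 and Mesp1 with a pseudocount of 0.1 FPKM in place of 1. The Id genes had reached most of their 24 h level by then, with Id1 at 184 FPKM after 1.5 h, against 14.1 FPKM in untreated EpiSCs.

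Between the times of BMP-4, the same 4 genes were higher after 24 h than after 1.5 h, against 0.609% of genes higher and 0.427% lower. Here too Cdx2, Evx1 and Mesp1 reached the required mean through the 24 h value itself, so the count adds nothing to the values. T differed by 2.96, Mesp1 by 2.69, Cdx2 by 2.57 and Evx1 by 1.85 on the log2 scale. The intervals were apart for T and Cdx2 and overlapped for Mesp1 and Evx1, beside 0.0363% of genes higher and 0.0182% lower with intervals apart. Mixl1 differed by 0.79 and Eomes by 0.52, within 2-fold. Mixl1 was called higher at a limit of 1.5-fold and with a pseudocount of 0.1 FPKM. This comparison and that with untreated EpiSCs share the 24 h library.

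Other genes of the streak and of mesoderm differed among themselves after 24 h. Of 14 genes of presomitic mesoderm and the tail bud, 7 reached the mean, and 3 were higher and 0 lower: Axin2, a negative regulator and target of Wnt signalling (20.4 and 7.31 FPKM after 24 h and in untreated EpiSCs), Sp5, a Wnt target (20.6 and 9.25 FPKM), and Rspo3, a Wnt agonist (4.64 and 1.72 FPKM). Intervals overlapped for all 3, and Rspo3 reached the mean through its 24 h value alone. The list median was 0.19, beside -0.00 over all genes. Dll1 (1.12 and 1.84 FPKM), the Notch ligand of presomitic mesoderm, does not reach the mean and lay within 2-fold. Mesp2, Ripply2 and Meox1, which mark forming somites, stood at 0.32, 0 and 0.0346 FPKM after 24 h.

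Of 18 streak and mesoderm signals, 12 reached the mean, with 1 higher and 1 lower (median 0.25). The higher gene was Wnt5b, a noncanonical Wnt ligand of the posterior streak (13 FPKM after 24 h and 3.5 in untreated EpiSCs), and the lower was Cyp26a1, which degrades retinoic acid (3.82 and 10.5 FPKM). Intervals overlapped for both. Wnt3, the Wnt ligand needed to form the streak, stood at 23.9 FPKM after 24 h and 12.6 in untreated EpiSCs, and Fgf8 at 82.0 and 61.2 FPKM, both within 2-fold. Of 16 genes of lateral, extraembryonic and cardiac mesoderm in the table, 2 reached the mean and 0 were higher or lower. Hand1, a factor of lateral and extraembryonic mesoderm, stood at 0.204 FPKM after 24 h, against 0.111 FPKM in untreated EpiSCs, and the endothelial receptor Kdr at 0.738 and 0.376 FPKM.

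Of 10 genes of the epithelial to mesenchymal transition, 7 reached the mean and 0 were higher or lower (median -0.05). E-cadherin, Cdh1, stood at 137 FPKM after 24 h, against 135 FPKM in untreated EpiSCs, N-cadherin, Cdh2, at 16.2 and 19.8 FPKM, and the repressor Snai1, which does not reach the mean, at 1.3 and 0.477 FPKM. Of the 17 Hox genes listed, which Cdx factors regulate in the embryo, 0 reached the mean. They summed to 1.82 FPKM after 24 h, against 0.292 FPKM in untreated EpiSCs, and Hoxd1, at 1.25 and 0.17 FPKM, made up most of that.

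Genes of the anterior streak, organizer and endoderm were measured as markers of the other streak derivatives. Of 12, 8 reached the mean, with 0 higher and 5 lower after 24 h (median -1.5): Cer1 (1.31 and 35.0 FPKM after 24 h and in untreated EpiSCs), Gsc (4.58 and 36.0 FPKM), Foxa2 (1.86 and 13.2 FPKM), Lhx1 (3.53 and 13.2 FPKM) and Chrd (0.811 and 3.64 FPKM). The 12 genes summed to 25.9 FPKM after 24 h, against 126 FPKM in untreated EpiSCs, while the 10 posterior genes summed to 149.5 and 40.4 FPKM. Intervals were apart for Cer1 and Gsc. Of 6 primed markers, 3 were lower, all with overlapping intervals, and 3 within 2-fold. They summed to 399 FPKM after 24 h, against 637 FPKM in untreated EpiSCs, with Otx2, one of the lower genes, at 8.21 and 30.1 FPKM and Dnmt3b, within 2-fold, at 288 and 403 FPKM. The part of these shifts in the higher levels of T, Cdx2, Evx1 and Mesp1 was not tested.

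Cdx2 and Eomes also serve in trophoblast, so its markers were read beside them. Of 12 genes, 6 reached the mean, with 0 higher and 1 lower. The lower one was the keratin gene Krt7 (1.00 FPKM after 24 h and 5.25 in untreated EpiSCs, with overlapping intervals). The list median was 0.38, beside 0.25 for the streak and mesoderm signals and -0.00 over all genes. The list summed to 252 FPKM after 24 h, against 192 FPKM in untreated EpiSCs, most of it from Krt8 and Krt18, which other epithelia also express. The placental genes Tpbpa and Prl3d1 were listed at 0 in all 5 libraries, and Elf5, a defining trophoblast factor, stood at 0.0361 FPKM after 24 h and was listed at 0 elsewhere. Tfap2c stood at 12.7 FPKM after 24 h, against 6.1 FPKM in untreated EpiSCs, just within 2-fold, and Gata3 at 0.873 and 0.156 FPKM.

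**Figure D4:**
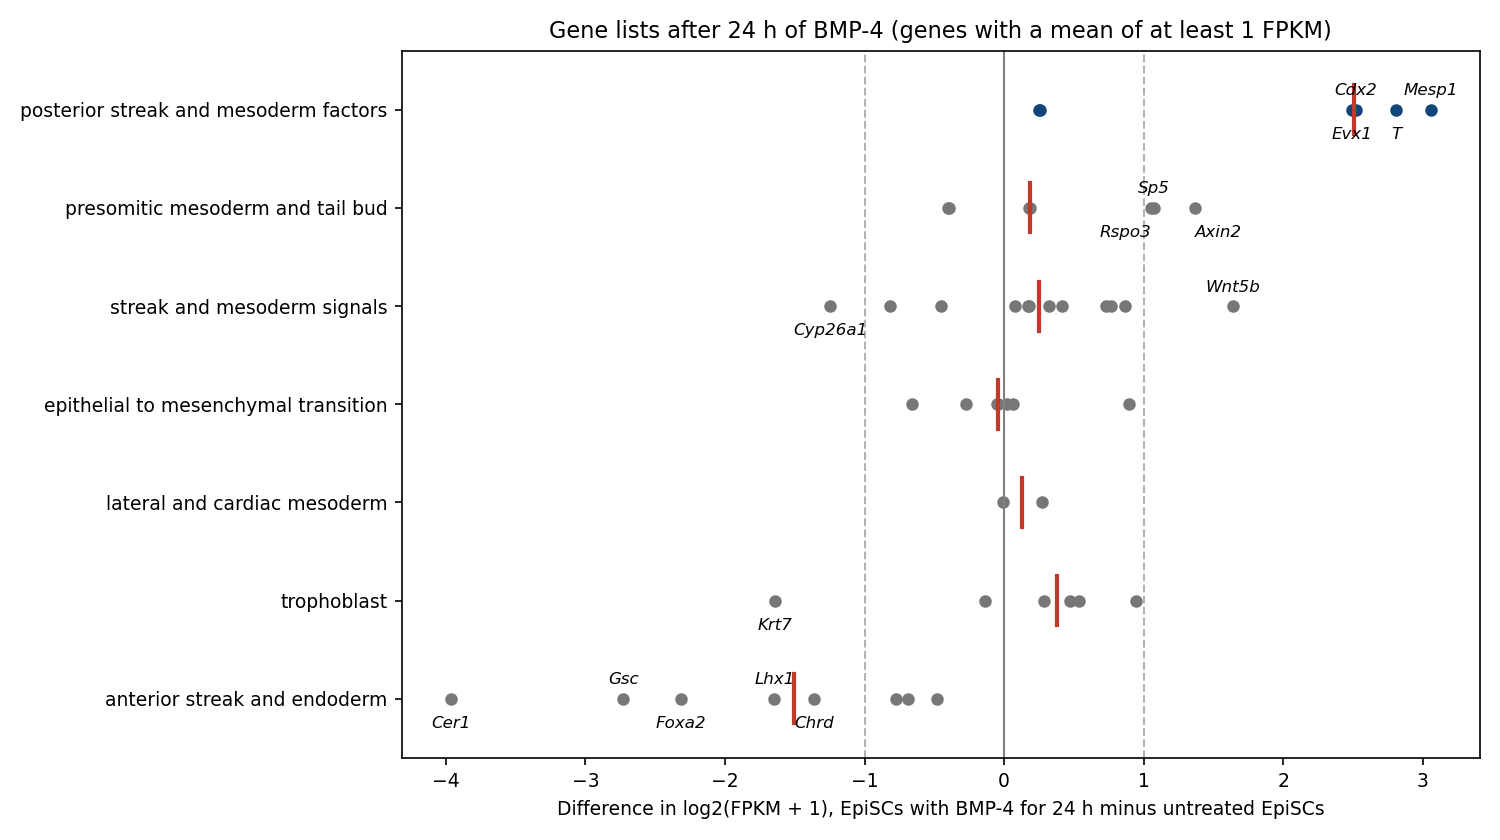
Difference in log2(FPKM + 1) between EpiSCs with BMP-4 for 24 h and untreated EpiSCs (x axis) for genes that reached a mean of 1 FPKM, by list (rows); points are genes, red bars list medians and dashed lines 2-fold. T, Cdx2, Evx1 and Mesp1 lie at 2.49 to 3.06, and 5 anterior and endoderm genes lie beyond 2-fold on the lower side.

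In untreated EpiSCs, 4 of the 10 genes were higher than in ESCs with LIF and serum, with 11.6% of all genes higher and 9.55% lower. They were Eomes (log2 difference 3.89), T (3.60), Mixl1 (1.65) and Cdx2 (1.27), and the intervals were apart for Eomes and T, beside 2.68% of genes higher and 2.84% lower with intervals apart. Evx1 differed by 0.00 and Mesp1 by -0.17. Of the genes higher after 24 h of BMP-4, T and Cdx2 were called above the ESC level in untreated EpiSCs too. Evx1 rested on 7 reads in untreated EpiSCs, and Mesp1 was listed at 0 there. Cdx1, below the required mean, was lower in untreated EpiSCs, at a log2 difference of -1.61 with overlapping intervals.

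Against ESCs with LIF and BMP-4, the same 4 genes were higher in untreated EpiSCs, with 11% of all genes higher and 10% lower. The differences were 3.68 for T, 3.60 for Eomes, 1.86 for Mixl1 and 1.14 for Cdx2, with intervals apart for T and Eomes, beside 2.39% of genes higher and 3.11% lower with intervals apart. Both comparisons share the untreated EpiSC library.

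Between the ESC libraries, 0 of the 6 genes that reached the mean were higher or lower with LIF and BMP-4 than with LIF and serum, beside 2.61% of all genes higher and 1.28% lower (0.163% and 0.0363% with intervals apart). The medium changed together with BMP-4, so their effects cannot be told apart. T, Cdx2, Evx1 and Mixl1 had 6 or fewer reads in each ESC library, and so did Mesp1 if its larger step holds. Cdx1, below the mean, stood at 0.402 FPKM from 6 reads (2.2 to 13.1) with BMP-4, against 2.04 FPKM from 29 reads (19.4 to 41.6) with serum, a log2 difference of -1.12. The deposited intervals overlapped and the Poisson limits did not. Levels of these genes with BMP-4 in ESCs and in EpiSCs come from different media and durations and were not compared further.

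The genes nearest in pattern were sought for T, Cdx2 and Eomes among 8624 genes that reached 5 FPKM in a library, by the root mean square over the 5 libraries of the difference in log2(FPKM + 1) after centring each gene. Nearest to T were Alox15, a lipoxygenase gene (distance 0.38), Ppp4r4, a phosphatase subunit gene (0.66), and Isg15, a ubiquitin-like modifier gene (0.79). Alox15 stood at 13.9, 16.9 and 66.3 FPKM in untreated, 1.5 h and 24 h EpiSCs, and at 0.469 and 0.0984 FPKM in ESCs with BMP-4 and with serum. Nearest to Cdx2 were Wnt5b (0.33), the Evx1os row (0.38) and Msx1, a homeobox gene and BMP target (0.41), with Evx1 at the fifth place. Nearest to Eomes were Fndc3c1 (0.15), Mogat2 (0.15) and the keratin gene Krt18 (0.15). In the order of likeness to T, Eomes stood at place 22, Cdx2 at 67, Evx1 at 353 and Mesp1 at 578. In that to Cdx2, Mesp1 stood at place 31, Eomes at 1300 and T at 1993. The distance takes in the gap between EpiSCs and ESCs and the size of each change. It does not measure likeness of the difference after 24 h alone. In that difference Eomes lay within 2-fold, and T, Cdx2, Evx1 and Mesp1 were higher.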

How the data were processed

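The table deposited by the authors holds FPKM per gene, both confidence bounds and an estimation status for 5 libraries, per the file headers; RNA was poly(A)-selected, per the labels' protocols. TopHat, Cufflinks, Picard, SAMtools and the mm9 build are named in the submitters' processing notes; the sources used here do not give the annotation, filters or scaling between libraries. The submitters' version of Cufflinks could not be resolved and is left out.

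Differences of log2(FPKM + 1) were taken in 6 comparisons over genes whose mean reached 1 FPKM and whose status was OK in both libraries, and called at 2-fold. Starts in the file count from 0, since 8129 of 22460 symbols matched in RefSeq had an equal span on that reading and 515 on the other, and are printed from 1. The depth of each library and the reads behind a value came from the whole-read steps of low values: 267 of 785 low genes with 1 transcript over 1500 nt in GENCODE M21 set the scale. Depth limits low genes, where 1 read was worth 0.0376 FPKM for T in the 24 h library. The depth estimate and the 2-fold calls were tested on simulated data. The read numbers of single genes, the deposited bounds and calls of changed genes at low levels were not tested in this way. The 10 genes and the 15 lists (156 of 157 genes found) were chosen with earlier results of these data known. The text names all 10 genes, up to 3 higher and 3 lower genes per list that reach 5 FPKM, other genes of a list described whole, the 3 nearest profiles of T, Cdx2 and Eomes, and marker genes. Python 3.11.15, pandas 2.3.3, numpy 2.4.6 and scipy 1.17.1 were used. Alternatives changed the pseudocount, the filter, the scaling, the fold and the use of the intervals.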

Additional observations from a re-analysis of the deposited data

How the results depend on the processing

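No paired analysis was possible because a single library stood for every group, so none could be left out either. Scaling by median ratios kept every count within 1.5 times. With the 1.5-fold limit the counts of all genes higher and lower were 241 and 193 for 24 h against untreated EpiSCs (72 and 58 at 2-fold), 75 and 55 for 1.5 h against untreated (26 and 20), 203 and 166 for 24 h against 1.5 h (67 and 47), 2233 and 1984 for untreated EpiSCs against ESCs with serum (1272 and 1051), 2159 and 1978 against ESCs with BMP-4 (1209 and 1104), and 897 and 559 between the ESC libraries (287 and 141). It also called Evx1 higher at 1.5 h (1 of the 10 genes), Mixl1 higher at 24 h against 1.5 h (5 genes in place of 4) and Mesp1 lower in EpiSCs against ESCs with BMP-4 (1). When intervals had also to be apart, the counts of all genes were 6 and 3, 3 and 0, 4 and 2, 295 and 313, 263 and 342, and 18 and 4 in the same order. The genes of the 10 then called were 1 after 24 h against untreated (T), 2 against 1.5 h (T and Cdx2), and 2 against each ESC library (T and Eomes).

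With a pseudocount of 0.1 FPKM the counts of all genes were 165 and 131 after 24 h, 69 and 59 after 1.5 h, 130 and 108 between the times, and 600 and 280 between the ESC libraries. Among the 10 genes it called 2 higher at 1.5 h (Evx1 and Mesp1), 1 lower in EpiSCs against either ESC library (Mesp1), and 1 higher and 1 lower between the ESC libraries (Mesp1 and Mixl1), from at most 7 reads in the lower library. It also called Mixl1 higher at 24 h against 1.5 h (5 genes in place of 4), from 106 and 40 reads. With 0.5 FPKM, 1 was lower in EpiSCs against ESCs with BMP-4 (Mesp1). Without a filter, or with 1 FPKM required in 1 library, Cdx1 was the 1 gene lower in untreated EpiSCs and in ESCs with BMP-4, each against ESCs with serum. The log2 difference of T between untreated EpiSCs and ESCs was 6.23 (serum) and 6.90 (BMP-4) at 0.1 FPKM, against 3.60 and 3.68 at 1 FPKM, and after 24 h that of Mesp1 was 6.21 and of Evx1 4.14. T, Cdx2, Evx1 and Mesp1 were called higher after 24 h under each alternative except that on intervals. The log2 differences of single genes left the range set by their deposited bounds in 35 of 60 cases at 0.1 FPKM, 2 of 60 at 0.5 FPKM and 0 of 60 under scaling, and none that was called changed sign.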

Other observations

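Of 14 other T-box genes, 3 reached the mean of 1 FPKM, with 1 higher and 0 lower after 24 h of BMP-4. Tbx3, which acts in naive pluripotency and in mesoderm and endoderm, was the higher one, at 1.86 FPKM, against 0.0636 FPKM in untreated EpiSCs, with overlapping intervals, and stood at 24.3 and 30.6 FPKM in ESCs with BMP-4 and with serum. Mga, a T-box and Max-binding repressor gene, stood at 12.3 to 13.9 FPKM in the EpiSC libraries and at 15.6 and 15.4 FPKM in ESCs. Tbx15 stood at 2.43 to 2.65 FPKM in the EpiSC libraries and at 0.185 and 0.0323 FPKM in ESCs with BMP-4 and with serum.

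Tcf15, a basic helix-loop-helix factor of somites that naive cells also express, stood at 10.5, 17.3 and 7.75 FPKM in untreated, 1.5 h and 24 h EpiSCs, against 104 and 132 FPKM in ESCs with BMP-4 and with serum. Mesp2, the neighbour of Mesp1, had its highest value, 1.02 FPKM, in ESCs with BMP-4. The ParaHox genes Gsx1, Gsx2 and Pdx1 and the Evx1 relative Evx2 stayed below 0.5 FPKM in all libraries, and Evx2 was listed at 0 in each.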
